A study of Mus musculus with 3 samples.

Results

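The markers of other skin and body lineages are 35 genes, named by symbol, that are commonly read as signs of keratinocytes, other epithelia, blood cells, mast cells, vessels, fibroblasts, skeletal muscle, liver, fat and neurons. All 35 were found once each among the 22698 Ensembl genes measured in melan-a cells. The rule that lists them uses no measured value, but they were chosen with earlier results of these data known. RNA-seq was performed on untreated melan-a cells, an immortalized line of mouse melanocytes, in 3 replicates that are labelled 1, 3 and 4. There was 1 condition and no control group, and the labels give the cell type as melanocytes of Ink4a-ARF-/- mice on a C57BL/6J background. The cells were grown in RPMI 1640 with 10% serum, 200 nM of the phorbol ester TPA and 200 pM cholera toxin, the additives under which this line is maintained. The replicates are called bioreplicates, and the spread given here is the spread between these 3 libraries.

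A melanocyte of the skin lies among basal keratinocytes, to which it passes its melanosomes, and near the vessels, fibroblasts, mast cells and macrophages of the dermis. Each of these cell types is recognized by a few structural or surface proteins, such as the keratin pair K5 and K14 of basal keratinocytes, the phosphatase CD45 of blood cells and the adhesion molecules CD31 and VE-cadherin of endothelium. Some genes used as markers are also known from more than 1 cell type. Lysosomal and matrix proteins are examples, and melanosomes belong to the same organelle family as lysosomes.

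Of the 35 lineage markers, 8 reached 3 reads or more in every replicate (22.9%), against 57.7% of the 22324 genes of known length. They were, from the highest mean down, the lysozyme gene Lyz2, the endothelial diaphragm gene Plvap, the matrix gene Fbln1, the lysosomal gene Cd68, the suprabasal keratin Krt10, the mucin-like gene Pdpn, the muscle filament gene Des and the desmosomal gene Dsp. A mean of 1 FPKM or more (reads per kilobase of gene, relative to library size) was reached by 4 markers (11.4%), against 45.1% of all genes, and these were Lyz2, Plvap, Fbln1 and Cd68. At the other end, 13 markers were listed at 0 in every replicate (37.1%), against 31.4% of all genes. The remaining 14 had some reads without reaching 3 in every replicate. The median marker had a mean of 0.00667 FPKM, the median gene of the files 0.277 FPKM and the median of 12 melanocyte genes 67.1 FPKM. In RNA from a whole culture, fewer cells of a type and less RNA per cell cannot be told apart.

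**Figure D1:**
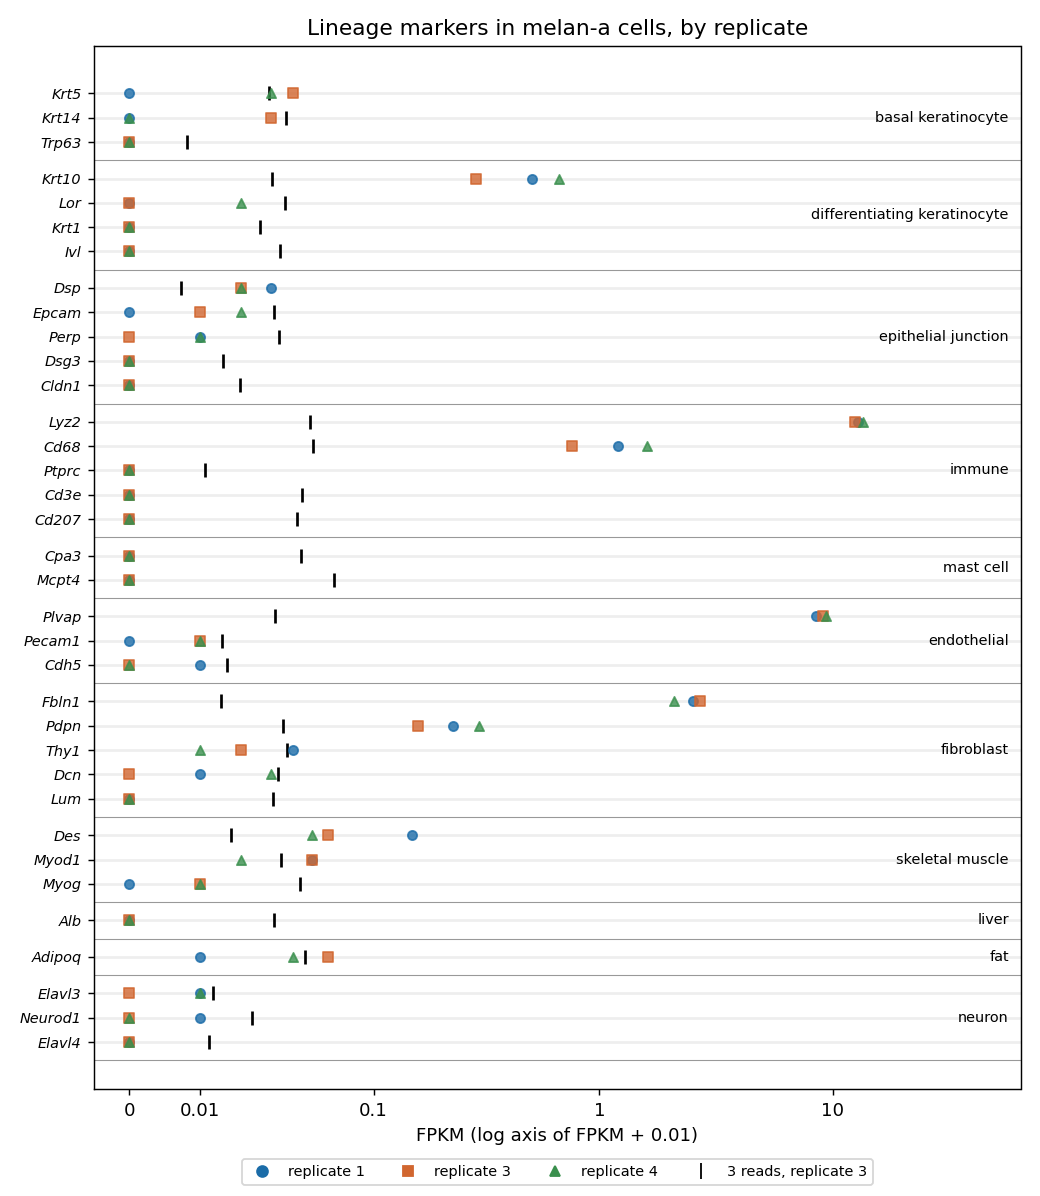
FPKM of each of the 35 lineage markers (rows, grouped by lineage) in replicates 1, 3 and 4 on a log axis of FPKM + 0.01. Each symbol is 1 replicate, and the black tick is the level that 3 reads of that gene amount to in replicate 3, the smallest library. Lyz2 and Plvap lie farthest to the right, followed by Fbln1 and Cd68, while for 13 markers all 3 symbols sit at 0.

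The depth sets what a low value can mean. The deposited values hold no counts, but low values of short genes with a single transcript fell on whole reads, which gave library sizes of 53900000, 46900000 and 66400000 reads for replicates 1, 3 and 4 on the authors' TMM scale. These are scaled sizes and not the number of reads sequenced or counted, and the estimated reads of all genes with a length sum to more, namely 61858776, 55303256 and 72667885. With 1 kb of exon, 3 reads amount to 0.056, 0.064 and 0.045 FPKM in the same order. Values are rounded to 2 decimals, so a listed 0 means less than 0.005 FPKM and can hide reads of a long gene. Reads per marker given here are estimates from FPKM, exon length and library size, and intervals on them are exact Poisson intervals that cover counting error only.

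The melanocyte genes were read first. Their list was chosen with earlier results of these data known, so it does not check the cell type on the labels. All 12 melanocyte genes had 3 reads or more in every replicate, against 57.7% of the genes of known length. A mean of 1 FPKM or more was reached by 11, against 45.1% of all genes. Tyrp1, a melanosomal enzyme, stood at 3331, 2648 and 3452 FPKM in replicates 1, 3 and 4, and Pmel, which forms the melanosome fibrils, at 592, 622 and 512 FPKM. The exception was Kit, the receptor of stem cell factor, at 0.67, 0.59 and 0.78 FPKM. Summed over the list, melanocyte genes came to 6674, 5852 and 6688 FPKM, and the 35 lineage markers to 26.02, 25.78 and 27.67 FPKM. Cdkn2a, the locus that the labels give as deleted, was listed at 19.2, 16.5 and 24.3 FPKM. A value for the whole gene does not say which of its exons the reads came from, so it checks nothing about the allele.

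**Figure D2:**
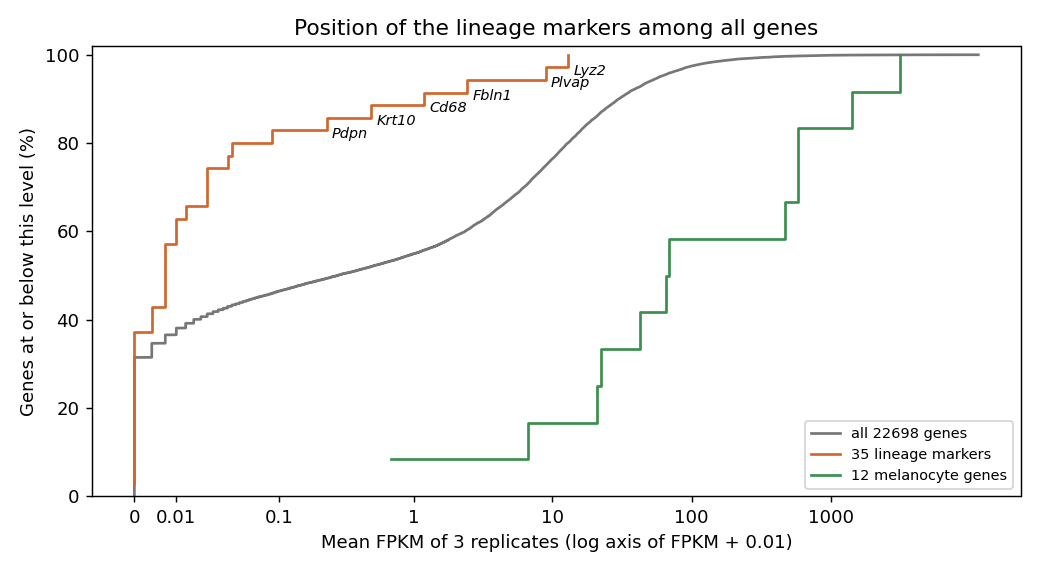
Share of genes (vertical axis, percent) with a mean FPKM at or below the level on the horizontal axis, a log axis of FPKM + 0.01, for all 22698 genes, the 35 lineage markers and 12 melanocyte genes. The marker curve starts at 37.1% of genes at 0 and reaches its end at 12.9 FPKM, while the melanocyte curve begins at 0.68 FPKM.

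Keratinocytes were represented by 7 keratin, envelope and transcription factor genes. The basal markers are Krt5 and Krt14, whose products pair into the filaments of the basal layer, and Trp63, the transcription factor of stratified epithelium. Krt5 was listed at 0, 0.04 and 0.03 FPKM in replicates 1, 3 and 4, or an estimated 0, 4 and 4 reads. Krt14 was listed at 0, 0.03 and 0 FPKM, with an estimated 2.47 reads in replicate 3. No whole number of reads gives that value at the exon length used here, and the authors' length is not known. Neither basal keratin had reads in every replicate, and Trp63 was listed at 0 throughout. Of the 50-base stretches of their transcripts, 8.5% for Krt5 and 14.4% for Krt14 also occur in transcripts of other genes, so their low values are uncertain by reads shared with relatives.

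Among the markers of keratinocyte differentiation, Krt10 alone passed 3 reads in every replicate. Krt10, the acidic keratin of the suprabasal layers, stood at 0.51, 0.29 and 0.67 FPKM (0.49 ± 0.19, SD, n = 3), from about 58, 28 and 93 reads. It ranked 10884th of the 22698 genes, above 52.0% of them. The value of replicate 3 was the lowest, with a 95% interval of 0.189 to 0.412 FPKM, and did not reach the interval of replicate 4, 0.54 to 0.819 FPKM. Krt1, the basic partner of Krt10 in filaments, was listed at 0 in every replicate, although 3 reads of it would have amounted to no more than 0.0262 FPKM. The envelope proteins were as low, with Ivl (involucrin) at 0 and Lor (loricrin) at 0, 0 and 0.02 FPKM. The Krt10 gene, at chr11:99246568-99250678 on the minus strand (mm9), shares 7.0% of its exon bases with Gm11940 on the opposite strand, and none of its transcript occurs elsewhere at 50 bases.

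The windows around the start sites of Krt10 and Krt5 are shown because the first gene was measured in every replicate and the second was not. Both are RefSeq promoter windows of GRCm38.p6, from 250 bases before to 50 bases after the start, written in the direction of the gene and with matches to the searched motifs in capitals. The Krt10 window is chr11:99389315-99389614 and the Krt5 window chr15:101712856-101713155, both on the minus strand.
Krt10: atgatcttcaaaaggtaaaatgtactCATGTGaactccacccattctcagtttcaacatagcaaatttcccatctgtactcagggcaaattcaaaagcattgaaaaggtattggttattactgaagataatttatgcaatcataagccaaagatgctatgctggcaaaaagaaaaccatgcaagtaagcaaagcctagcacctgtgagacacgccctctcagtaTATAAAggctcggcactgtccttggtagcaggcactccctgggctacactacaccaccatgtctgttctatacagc
Krt5: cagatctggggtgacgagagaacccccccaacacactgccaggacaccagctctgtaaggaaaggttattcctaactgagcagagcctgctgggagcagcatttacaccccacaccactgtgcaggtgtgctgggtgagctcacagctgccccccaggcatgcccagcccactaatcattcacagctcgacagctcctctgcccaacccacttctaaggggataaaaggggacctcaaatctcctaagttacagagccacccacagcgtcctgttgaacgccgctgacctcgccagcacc
Capitals in the Krt10 window mark TATAAA, with its first base 26 bases before the start, and CATGTG, 224 bases before it. CATGTG and CACGTG are forms of the E box that MITF and related factors are known to bind, and GCCNNNGGC is a form of the motif bound by TFAP2 factors. The Krt5 window held none of the 4 motifs on either strand. Only exact letters were searched, so near forms such as GATAAA in the Krt5 window were not counted. Ivl, listed at 0 in every replicate, held TATAAA 29 bases before its start and CATGTG, read on the other strand, 185 bases before it. Lor, which also missed 3 reads, held TATAAA 27 bases before its start, so neither motif was particular to the measured gene. Over 27025 RefSeq promoters of this length, 14.2% held TATAAA, 14.1% CATGTG, 7.2% CACGTG and 16.5% GCCNNNGGC on either strand. Of the 24 lineage markers with a window, 7 held TATAAA (29.2%), 3 CATGTG (12.5%), 3 CACGTG (12.5%) and 4 GCCNNNGGC (16.7%). These are matches of letters in a window, not sites that were measured.

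The 5 epithelial junction markers encode proteins that hold epithelial cells together. Dsp, the desmosomal plakin that anchors keratin filaments, was at 0.03, 0.02 and 0.02 FPKM, which for its 9625 exon bases is an estimated 16, 9 and 13 reads. Its replicates overlapped within counting error, and at its length 3 reads amount to at most 0.00665 FPKM, so it passed with the same mean as Krt5, 0.0233 FPKM. Dsp shares 3.7% of its exon bases with Gm10129 on the opposite strand. Epcam, the adhesion molecule of simple epithelia, was at 0, 0.01 and 0.02 FPKM, and Perp, a desmosome-associated membrane protein, at 0.01, 0 and 0.01 FPKM. Dsg3, the desmosomal cadherin, and Cldn1, the tight junction claudin, were listed at 0 in every replicate. Together the 12 keratinocyte and junction markers summed to 0.55, 0.39 and 0.77 FPKM, and without Krt10 to 0.04, 0.10 and 0.10 FPKM. Krt10 was left out of the second sum as the highest of them, after its value was seen.

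Other genes of these 3 epithelial lists fell into a measured and an unmeasured part. Of 10 further basal keratinocyte genes, 5 passed 3 reads and 3 had a mean of 1 FPKM or more. Those 3 were Dst, a linker of cytoskeleton and membrane, at 11.5, 9.08 and 16.1 FPKM, Itgb4, the hemidesmosomal integrin chain, at 2.55, 2.94 and 2.21 FPKM, and Sfn, the 14-3-3 sigma protein, at 1.85, 2.64 and 1.61 FPKM. Of 15 further junction genes, 5 passed 3 reads. Tjp1, the ZO-1 scaffold, was at 15.2, 12.3 and 16.6 FPKM and Jup, plakoglobin, at 7.79, 8.68 and 6.40 FPKM, followed by the plakin Ppl at 0.21, 0.11 and 0.18 FPKM. Of 9 further differentiation genes 2 passed 3 reads, Sbsn and Tgm1, and none reached 1 FPKM. These 2 are named because the count is small, and Sbsn, the higher, was at 0.38, 0.32 and 0.33 FPKM.

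The 5 immune markers lay between 0 and the highest level of the 35. Lyz2, lysozyme M, a bacterial cell wall hydrolase of macrophages and neutrophils, had the highest mean of all markers, at 12.81, 12.46 and 13.42 FPKM (12.9 ± 0.49, SD, n = 3), from about 907, 767 and 1170 reads. The 3 values lay close together, with a coefficient of variation of 3.77%. Lyz2 ranked 4544th of all genes, above 80.0% of them. Cd68, a lysosomal membrane glycoprotein used to stain macrophages, was at 1.20, 0.76 and 1.60 FPKM (1.19 ± 0.42, SD, n = 3), from about 81, 45 and 134 reads. Its replicate 3 was again the lowest, and its interval of 0.557 to 1.02 FPKM lay below that of replicate 4, 1.35 to 1.9 FPKM.

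The other 3 immune markers, all of blood cell surfaces, were at 0. Ptprc, which encodes CD45 on all nucleated blood cells, was listed at 0 in replicates 1, 3 and 4, where 3 reads would be at most 0.011 FPKM. Cd3e, a chain of the T cell receptor complex, and Cd207, the langerin of Langerhans cells, were also at 0 in each replicate. Of 20 further immune genes 2 passed 3 reads and 8 were at 0. The 2, named here after their values were seen, were the lysosomal Laptm5 at 0.50, 0.63 and 0.39 FPKM and the receptor chain Fcer1g at 0.61, 0.44 and 0.38 FPKM. The remaining genes had some reads but missed 3 in some replicate. Also named after their values were seen, the surface genes Csf1r and Cd79a were among them. Csf1r was at 0.01, 0.02 and 0.01 FPKM and Cd79a at 0.03, 0.03 and 0.11 FPKM. Without Lyz2 and Cd68, all 23 other genes of the immune list summed to 1.36, 1.22 and 1.06 FPKM, less than the value of Lyz2 by itself in any replicate. Lyz2 and Cd68 were left out as the highest of the list, after their values were seen, so this sum is low by that choice.

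Lyz2 was also set beside melanocyte genes of known role in the same libraries. It was 1.81, 2.36 and 1.78 times as high as Ednrb, the endothelin receptor of melanoblasts, and 0.575, 0.716 and 0.501 times as high as Mitf, the main transcription factor of the lineage, in replicates 1, 3 and 4. The 3 values of Lyz2 did not overlap those of either gene. Tyrp1 was 260, 213 and 257 times as high as Lyz2. Lyz2 lies at chr10:116714390-116719377 on the minus strand (mm9), in 4 exons of 1 annotated transcript, and 15.4% of the 50-base stretches of that transcript occur in another transcript, namely that of its neighbour Lyz1. Lyz1, the Paneth cell lysozyme, was listed at 0, 0 and 0.04 FPKM. Cd68, at chr11:69477715-69479655 on the minus strand, begins 783 bases from Eif4a1, which lies upstream on the same strand with a mean of 88.7 FPKM. The part of reads running on from Eif4a1 in the value of Cd68 was not tested.

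The RefSeq window of Lyz2, chr10:117282223-117282522 on the minus strand of GRCm38.p6, is shown as that of the highest marker.
Lyz2: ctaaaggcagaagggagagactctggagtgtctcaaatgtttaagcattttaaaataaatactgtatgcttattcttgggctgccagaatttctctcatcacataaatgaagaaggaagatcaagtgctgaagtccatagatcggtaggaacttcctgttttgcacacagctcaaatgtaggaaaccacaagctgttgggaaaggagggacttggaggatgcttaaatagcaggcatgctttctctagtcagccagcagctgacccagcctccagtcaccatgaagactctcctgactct
It held none of the 4 motifs, so no letters are in capitals, and 1 CpG dinucleotide, with fewer in 5.8% of all promoters. The window of Cd68 held none of the motifs either.

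Mast cells were represented by Cpa3, carboxypeptidase A, and Mcpt4, a chymase of connective tissue mast cells. Both were listed at 0 in all 3 replicates, with 3 reads equal to at most 0.044 FPKM for Cpa3 and 0.0646 FPKM for Mcpt4. Of 8 further mast cell genes, none passed 3 reads and 5 were at 0.

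The 3 endothelial markers were unequal. Plvap, which builds the diaphragms of caveolae and fenestrae in vessels, was at 8.42, 9.09 and 9.31 FPKM (8.94 ± 0.46, SD, n = 3), from about 914, 859 and 1246 reads. It was the second highest marker and ranked 5699th, above 74.9% of genes. Pecam1, which encodes CD31, was at 0, 0.01 and 0.01 FPKM, and Cdh5, VE-cadherin, at 0.01, 0 and 0 FPKM. Each of these values rests on at most an estimated 3 reads, and both genes missed 3 reads in some replicate. Plvap was 1.19, 1.72 and 1.23 times as high as Ednrb and 12.6, 15.4 and 11.9 times as high as Kit, without overlap in either case. The gene lies at chr8:74021653-74035668 on the minus strand (mm9) and overlaps Gtpbp3 on the opposite strand (mean 5.16 FPKM), but none of their exon bases overlap.

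Of 12 further endothelial genes, 3 passed 3 reads. Egfl7, a secreted protein of vessels, was at 9.03, 9.67 and 6.83 FPKM, a range that includes values of Plvap. The other 2 were near the limit, the clotting factor carrier Vwf at 0.01, 0.03 and 0.03 FPKM and the VEGF receptor Flt1 at 0.02 FPKM in each replicate. Without Plvap and Egfl7, the 13 other genes of the endothelial list summed to 0.09, 0.09 and 0.12 FPKM. Plvap and Egfl7 were left out as the highest of the list, after their values were seen, so this sum is low by that choice.

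Of the 5 fibroblast markers, 2 passed 3 reads in every replicate. Fbln1, a fibulin of the extracellular matrix, was at 2.52, 2.71 and 2.09 FPKM (2.44 ± 0.32, SD, n = 3), from about 593, 555 and 606 reads. Its replicate 4 was the lowest. Pdpn, podoplanin, a surface mucin of fibroblastic, lymphatic and other cells, was at 0.23, 0.16 and 0.30 FPKM (0.23 ± 0.07, SD, n = 3), from about 23, 14 and 36 reads. Thy1, a surface antigen of fibroblasts and neurons, was at 0.04, 0.02 and 0.01 FPKM and the proteoglycan Dcn at 0.01, 0 and 0.03 FPKM, both short of 3 reads in some replicate. Lum, the proteoglycan next to Dcn in the genome, was listed at 0 throughout.

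The windows of Fbln1 and Pdpn are shown because they are the measured markers whose windows hold CACGTG. They are chr15:85205699-85205998 on the plus strand and chr4:143299515-143299814 on the minus strand (RefSeq, GRCm38.p6), and capitals again mark the matches.
Fbln1: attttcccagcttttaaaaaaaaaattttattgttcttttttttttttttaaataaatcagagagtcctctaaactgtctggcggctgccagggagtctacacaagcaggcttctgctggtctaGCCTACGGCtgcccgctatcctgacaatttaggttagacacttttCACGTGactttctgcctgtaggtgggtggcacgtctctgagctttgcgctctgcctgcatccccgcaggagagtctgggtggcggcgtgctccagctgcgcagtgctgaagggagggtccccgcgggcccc
Pdpn: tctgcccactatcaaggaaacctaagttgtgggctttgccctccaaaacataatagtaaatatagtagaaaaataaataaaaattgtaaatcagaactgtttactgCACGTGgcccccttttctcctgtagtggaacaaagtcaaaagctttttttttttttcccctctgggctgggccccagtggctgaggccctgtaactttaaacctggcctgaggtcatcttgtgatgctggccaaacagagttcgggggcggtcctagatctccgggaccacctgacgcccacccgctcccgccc
In Fbln1, CACGTG begins 81 bases before the start and GCCTACGGC, a match to GCCNNNGGC, 126 bases before it. In Pdpn, CACGTG begins 144 bases before the start. Fbln1 has a second RefSeq window that overlaps this one and holds the same matches. The 7 measured markers with a window had a median of 7 CpG, the 17 others 5 and all promoters 7.

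Of 16 further fibroblast genes, 11 passed 3 reads and 4 had a mean of 1 FPKM or more. Fn1, fibronectin, was at 725, 663 and 695 FPKM and ranked 51st of all genes. Postn, periostin, was at 20.21, 10.56 and 26.03 FPKM and Ogn, osteoglycin, at 9.69, 5.76 and 14.2 FPKM, each lowest in replicate 3. Type I collagen was unequal, with Col1a1 at 1.51, 1.77 and 1.33 FPKM and Col1a2 at 0.05, 0.02 and 0.05 FPKM. These 2 collagen genes are named after their values were seen.

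**Figure D3:**
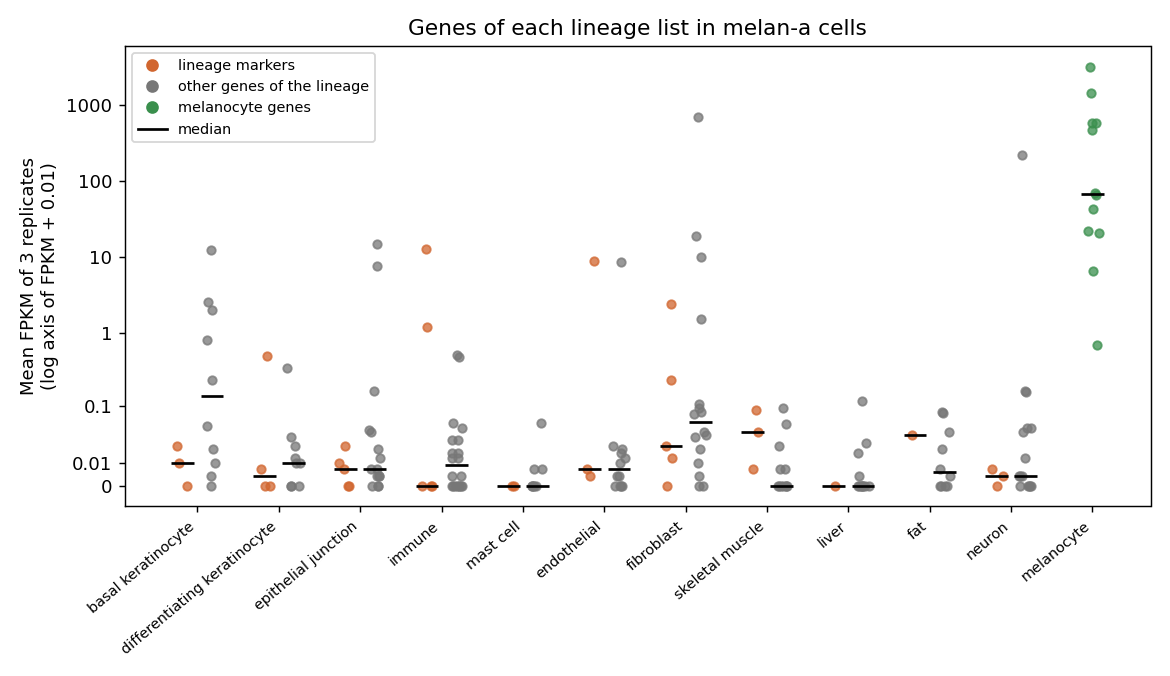
Mean FPKM over 3 replicates (log axis of FPKM + 0.01) of each gene in the lineage lists. Orange points are the 35 lineage markers, grey points 139 other genes of the same lineages, green points 12 melanocyte genes, and horizontal lines are medians. Medians of all marker groups lie below 0.1 FPKM, with Fn1 and Tubb3 as the highest grey points.

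Skeletal muscle was represented by 2 regulators and a filament. Des, desmin, the intermediate filament of muscle, was at 0.15, 0.06 and 0.05 FPKM (0.087 ± 0.055, SD, n = 3), from about 30, 11 and 12 reads. Replicate 1 was the highest, with an interval of 0.1 to 0.212 FPKM that overlaps that of replicate 3, 0.0312 to 0.112 FPKM, and not that of replicate 4, 0.0249 to 0.0841 FPKM. Des shares 5.9% of its exon bases with Gm15179 on the opposite strand. Myod1, the myogenic master factor, was at 0.05, 0.05 and 0.02 FPKM, from 5, 4 and 2 reads, and Myog, myogenin, at 0, 0.01 and 0.01 FPKM. Of 12 further muscle genes, 1 passed 3 reads and 7 were at 0. That gene, named after its value was seen, was Ckm, muscle creatine kinase, at 0.16, 0.05 and 0.07 FPKM, and the whole list of 15 genes summed to 0.52, 0.23 and 0.20 FPKM. The sum was highest in replicate 1, where Des and Ckm, which make up much of it, were also highest.

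Liver, fat and neurons were represented by 5 markers, none of which passed 3 reads in every replicate. Alb, serum albumin, was listed at 0, where 3 reads would be at most 0.0313 FPKM. Adipoq, adiponectin of fat cells, was at 0.01, 0.06 and 0.04 FPKM, from an estimated 1, 4 and 4 reads. Of the neuronal markers, the RNA-binding protein gene Elavl3 was at 0.01, 0 and 0.01 FPKM, the transcription factor Neurod1 at 0.01, 0 and 0 FPKM, and Elavl4 at 0. Neurod1 shares 7.4% of its exon bases with Cerkl on the same strand.

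Other genes of these tissues were mostly low too. Of 12 further liver genes 1 passed 3 reads, Afp (alpha-fetoprotein) at 0.10, 0.18 and 0.08 FPKM, and of 10 further fat genes 2, Pparg at 0.07, 0.11 and 0.07 FPKM and Lpl at 0.07, 0.07 and 0.10 FPKM. These 3 are named because their counts are small. Of 15 further neuronal genes 6 passed, and the 3 highest were Tubb3, a beta-tubulin used to mark neurons, at 218.8, 249.4 and 180.5 FPKM, the intermediate filament Ina at 0.17, 0.17 and 0.15 FPKM and the synaptic vesicle gene Syp at 0.14, 0.20 and 0.13 FPKM. Over all the lineages, 38 of 139 further genes passed 3 reads (27.3%), against 57.7% of genes of known length. The fibroblast list alone lay above that share, at 68.8%. A mean of 1 FPKM or more was reached by 11 (7.9%, against 45.1% of all genes), and 50 were at 0 (36.0%, against 31.4%).

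The order of neighbouring markers could be told from the replicates only at its upper end. Lyz2 was 1.44 times as high as Plvap, Plvap 3.66 times as high as Fbln1, Fbln1 2.06 times as high as Cd68 and Cd68 2.42 times as high as Krt10, and in each of these pairs the 3 values of the higher gene lay above all 3 of the lower. Krt10 was higher than Pdpn in each replicate, but their ranges overlapped. Pdpn lay above Des without overlap, 2.65 times as high. From Des down, every pair of neighbours overlapped, so no order of neighbours is given there. Des was higher than Myod1 in each replicate, but their ranges overlapped. Markers farther apart in the order were not compared. An exact permutation test of a pair cannot go below p = 0.25 with 3 replicates, so no p is given.

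**Figure D4:**
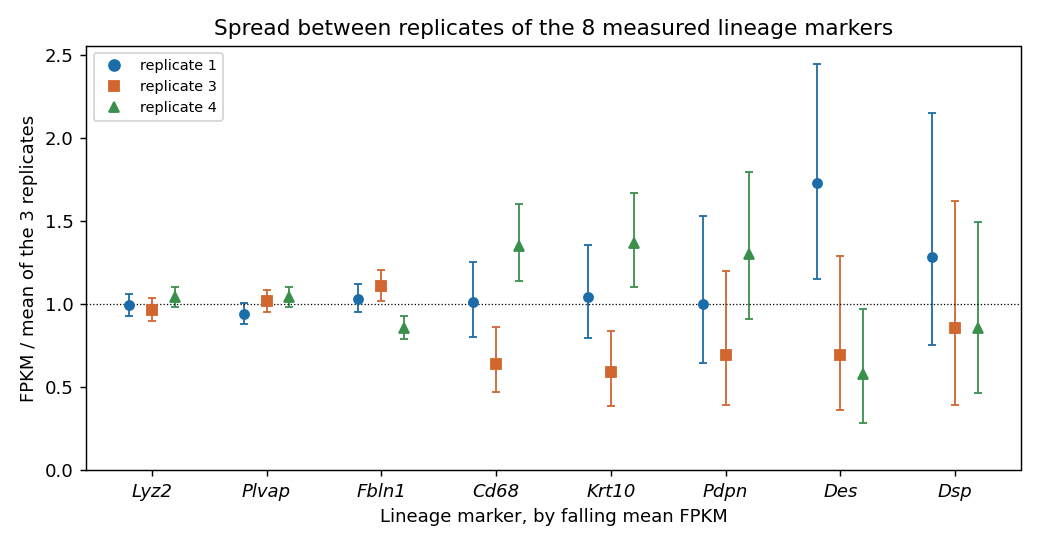
FPKM of each replicate divided by the mean of the 3 replicates for the 8 lineage markers with 3 reads or more in every replicate, in falling order of the mean. Bars are exact 95% Poisson intervals of the estimated reads, for counting error only. Lyz2, Plvap and Fbln1 keep near 1, and replicate 3 is below replicates 1 and 4 for Cd68, Krt10 and Pdpn.

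The 3 markers next below Fbln1 shared an order of replicates. Cd68, Krt10 and Pdpn were each highest in replicate 4 and lowest in replicate 3, with ratios of replicate 4 to replicate 3 of 2.11, 2.31 and 1.88. For Pdpn the 95% counting intervals overlapped, at 0.0898 to 0.276 FPKM in replicate 3 and 0.209 to 0.413 FPKM in replicate 4. Lyz2 had the same order of replicates at a ratio of 1.08, while Plvap had a ratio of 1.02 and Fbln1 of 0.771. The order was not particular to these markers. Among the melanocyte genes, Tyr, Tyrp1, Dct, Mlana, Mitf, Kit and Ednrb had it, and Pmel, Slc45a2, Slc24a5, Sox10 and Mc1r did not. The base composition of transcripts moved with the same pair of libraries over 10006 genes of 1 FPKM or more in each replicate. The median ratio was 1.41 for genes under 45% GC and 0.75 for genes of 55% or more. Among genes within 2 points of GC, the median ratio was 0.89 for Cd68, 0.87 for Krt10, 1.07 for Pdpn, 1.09 for Lyz2, 0.70 for Plvap, 0.84 for Fbln1, 0.79 for Des and 0.94 for Dsp. Des and Dsp had ratios of 0.833 and 1.0. The ratios of Cd68, Krt10, Pdpn, Plvap, Des and Dsp were above these medians, those of Des and Dsp only slightly. Those of Lyz2 and Fbln1 were below. The part of base composition in the ratios was not tested.

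The 13 markers at 0 in every replicate were Trp63, Krt1, Ivl, Dsg3, Cldn1, Ptprc, Cd3e, Cd207, Cpa3, Mcpt4, Lum, Alb and Elavl4. In the smallest library, 3 reads would have come to 0.00762 FPKM for Trp63, the longest of them, and to 0.0646 FPKM for Mcpt4, the shortest. Through rounding, a listed 0 can hide up to 2 reads of Trp63 and up to 1 of Ptprc, Dsg3, Cldn1 or Elavl4 in a replicate. For the other 8, a single read would have been listed above 0. In each replicate, 16, 16 and 19 of the 35 markers were above 0, the most in replicate 4, the deepest library. The 27 markers that missed 3 reads in some replicate summed to 0.15, 0.23 and 0.21 FPKM.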

How the data were processed

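RNA-seq libraries of 3 melan-a replicates, prepared with a stranded mRNA kit, were processed by the authors. Per the study's methods and processing notes, base calls were made with CASAVA 1.8.2, the 5'-most bases of each read were trimmed, reads were aligned to mm9 with STAR 2.3.0e, rRNA reads were removed, and reads were counted on Ensembl genes with HTSeq 0.5.3p3. The authors deposited FPKM values with 2 decimals, after TMM scaling. The conversion of counts to FPKM and the strand setting of the counting are not given in the sources used here.

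Library sizes were recovered from 132 to 169 short single-transcript genes per replicate, with a mean distance from whole reads of 0.0521 to 0.0732. Joined exons of a GENCODE mm9 annotation gave gene lengths, which 374 genes lacked. Reads of genes with several transcripts are estimates, since the length used by the authors is not known. With 1 condition, no test between groups was possible. Members and gene lists were chosen with earlier results of these data known. By the naming rule every marker is accounted for, with values in all replicates for those at 3 reads or more and for Krt5, Krt14, Ptprc, Pecam1 and Cdh5. It also names the 3 highest genes of each further list in which a gene reached 1 FPKM, and melanocyte genes for comparison. Other genes of the further lists are named with a statement that they were chosen for their values or for a small count, and Cdkn2a, Lyz1 and overlapping or neighbouring genes as checks. Flg, Krt85 and Runx2 were left out, because each matched several genes or none.

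Promoter windows came from RefSeq (GRCm38.p6), with an entry for 24 of the 35 markers. Those without an entry were Krt1, Pecam1, Trp63, Dcn, Cdh5, Perp, Lum, Myod1, Thy1, Dsg3 and Plvap. Alternatives were each replicate left out, other read and FPKM floors, other lengths, rescaling, a pseudocount of 0.1 in place of 1 and protein-coding genes only. On simulated libraries of 45, 60 and 75 M reads, sizes of 44.9, 60 and 75 M were recovered, all genes planted at 4 reads were called and none at 1 read. The simulation made and read its values with the same exon lengths. It therefore says nothing about error from a different length used by the authors. Python 3.11.15 was used with numpy 2.4.6, pandas 2.3.3, scipy 1.17.1 and matplotlib 3.10.9.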

Additional observations from a re-analysis of the deposited data

How the results depend on the processing

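The count of markers at 3 reads or more, 8, ranged from 8 to 10 when 1 replicate was left out, and was 10 at 1 read, 7 at 10 reads, 8 with the longest transcript and 9 with the highest value that rounds to the listed one, an alternative added after seeing the data. The count at 1 FPKM or more, 4, ranged from 3 to 4 and was 3 without replicate 4, where Cd68 fell below the floor. It was 5 after rescaling each replicate to an equal sum over genes, 6 at a floor of 0.1 FPKM and 1 at 10 FPKM, Lyz2. The count at 0 in every replicate, 13, ranged from 14 to 15 with a replicate left out, and 24 markers were at 0 in at least 1 replicate, by the looser definition. The median marker level, 0.0096 as log2(FPKM + 1), ranged from 0.0072 to 0.0143 and was 0.0144 with the median over replicates. It was 0.0257 after rescaling, -3.23 with a pseudocount of 0.1, and 0.0331 over markers above 0 in some replicate, each of which follows from the unit, the pseudocount or the smaller set. With protein-coding genes only, the shares of all genes were 57.7% at 3 reads, 45.9% at 1 FPKM and 30.3% at 0. The mean level of each marker was also recomputed, but with 3 replicates a mean over fewer of them or a median cannot leave 1 SD of the mean, so these values say nothing about stability. No paired analysis was possible because there is 1 group of samples. Depth limits what can be said below 3 reads, and no replicate check exists beyond these 3 libraries.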

Other observations

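Genes of 9 further lineages, 70 in all, were read from the same libraries. Of these, 22 had 3 reads or more in every replicate (31.4%), against 57.7% of the genes of known length. A mean of 1 FPKM or more was reached by 4 (5.7%, against 45.1% of all genes). A listed 0 throughout was found for 27 (38.6%, against 31.4% of all genes). Tnnt2, the troponin T of heart muscle, was at 27.4, 31.6 and 30.7 FPKM in replicates 1, 3 and 4 (29.9 ± 2.2, SD, n = 3) and ranked 2276th of all genes, above each of the 35 lineage markers in every replicate. The rest of the heart list was low, with the troponin I gene Tnni3 at 0.03, 0.08 and 0.11 FPKM, the myosin Myh6 at 0.01, 0 and 0.02 FPKM, and 4 of the 7 genes at 0. All 8 smooth muscle and pericyte genes passed 3 reads. Lmod1, leiomodin, was at 9.43, 11.5 and 8.68 FPKM, Tagln, transgelin, at 1.18, 1.22 and 0.89 FPKM, and Acta2, smooth muscle actin, at 0.93, 1.15 and 0.75 FPKM.

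The retinal pigment epithelium, the other pigment cell of the body, had 3 of 7 genes at 3 reads or more. Rlbp1, a retinal carrier, was at 1.11, 1.08 and 1.15 FPKM, while Lrat at 0.07, 0.04 and 0.06 FPKM and Rpe65 at 0.06, 0.04 and 0.04 FPKM, both enzymes of the visual cycle, were near the limit. No gene of simple epithelium and Merkel cells, hair follicle and sebaceous gland, cartilage and bone, red blood cells, gut, pancreas, lung and kidney, or germ and pluripotent cells had a mean of 1 FPKM, and none of the 8 germ and pluripotent genes passed 3 reads. Lgals4, a galectin of gut epithelium chosen here after its values were seen, was at 0.19, 0.16 and 0.79 FPKM, and replicate 4 stood apart from the other 2.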
